A study of Mus musculus with 9 samples.

Results

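Enzymes that make and break down serine and glycine and pass their carbon to folate were examined in E14 mouse embryonic stem cells (ESCs) and in embryoid bodies (EBs), aggregates in which ESCs differentiate. The list held 10 genes (Tdh, Gcat, Gldc, Amt, Shmt1, Shmt2, Mthfd1, Mthfd2, Phgdh and Psat1), and a probe set was taken where the array's annotation pairs it with one of these symbols alone. This gave 20 probe sets of 7 genes, out of 34945 probe sets of 18193 genes paired with 1 symbol. Tdh and Amt were paired with no probe set, and the 3 probe sets of Gcat also carry the symbol of a neighbouring gene, so these 3 genes have no value here. A further 2 probe sets of Phgdh also carry a pseudogene's symbol and were left out.

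RNA was hybridized to 9 Affymetrix arrays of the mouse genome, 4 of ESCs (named ES2, ES6, ES8 and ES10) and 5 of EBs (EB1, EB3, EB5, EB7 and EB9). Both groups came from the E14 line without treatment, and the days for which the EBs had differentiated are not given in the sources used here. The study's methods describe its ESC arrays as biological replicates. No source used here says this of the EB arrays, so the spread between EB arrays on which the p-values partly rest may be technical. All values are log2 of the authors' GCRMA values, a background-corrected and normalized measure of hybridization. A level of one probe set also depends on how well its probes bind, so levels were compared between arrays and never between genes.

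Serine is made from a glycolytic intermediate by Phgdh, the first enzyme of the pathway, and then by Psat1, its aminotransferase, and the phosphatase Psph. The hydroxymethyltransferases Shmt1, in the cytosol, and Shmt2, in mitochondria, turn serine into glycine and load a one-carbon unit on tetrahydrofolate. Gldc is the glycine decarboxylase that opens the mitochondrial glycine cleavage system, which loads another such unit. Mthfd1 in the cytosol and Mthfd2 in mitochondria interconvert the folate-bound units, which go into purines, thymidylate and methionine. Mouse ESCs are known for their dependence on threonine, which the mitochondrial enzyme Tdh degrades.

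The 4 genes whose representative probe sets were called lower in EBs within both array sets described below were Gldc, Shmt1, Mthfd1 and Mthfd2. Their promoter sequences are shown so that the genes can be placed in the genome and their letters compared. Each window is RefSeq's on build GRCm38.p6, from 250 bases before to 50 after the annotated start, and capitals mark the GC box GGGCGG or its reverse complement CCGCCC, overlapping matches included.
Gldc, chr19:30175392-30175691, reverse strand: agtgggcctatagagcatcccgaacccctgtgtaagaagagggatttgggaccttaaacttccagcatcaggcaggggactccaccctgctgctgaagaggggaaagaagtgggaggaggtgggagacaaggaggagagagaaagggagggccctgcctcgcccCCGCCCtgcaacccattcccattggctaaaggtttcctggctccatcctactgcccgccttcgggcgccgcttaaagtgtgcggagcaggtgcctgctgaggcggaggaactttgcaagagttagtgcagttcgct
Shmt1, chr11:60811216-60811515, reverse strand: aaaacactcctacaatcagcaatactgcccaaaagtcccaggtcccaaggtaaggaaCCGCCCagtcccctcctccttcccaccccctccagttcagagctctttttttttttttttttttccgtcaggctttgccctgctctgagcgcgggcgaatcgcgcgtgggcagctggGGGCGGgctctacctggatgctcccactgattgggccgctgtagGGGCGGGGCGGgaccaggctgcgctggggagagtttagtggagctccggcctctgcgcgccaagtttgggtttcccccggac
Mthfd1, chr12:76254982-76255281, forward strand: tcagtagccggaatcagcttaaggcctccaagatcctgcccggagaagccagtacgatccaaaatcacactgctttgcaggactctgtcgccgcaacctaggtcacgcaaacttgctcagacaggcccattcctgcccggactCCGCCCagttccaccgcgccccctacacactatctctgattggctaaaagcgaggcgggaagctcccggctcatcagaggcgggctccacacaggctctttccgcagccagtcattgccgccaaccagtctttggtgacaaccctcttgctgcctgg
Mthfd2, chr6:83317555-83317854, reverse strand: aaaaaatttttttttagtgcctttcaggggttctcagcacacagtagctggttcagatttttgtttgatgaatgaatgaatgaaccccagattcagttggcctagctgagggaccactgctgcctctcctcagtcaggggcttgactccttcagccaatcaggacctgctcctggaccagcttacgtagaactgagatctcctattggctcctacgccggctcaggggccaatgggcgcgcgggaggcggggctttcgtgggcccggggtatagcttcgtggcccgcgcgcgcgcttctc
The Shmt1 window held 4 GC boxes, of which one pair overlaps, Gldc and Mthfd1 held 1 each, and Mthfd2 held 0. Among the 8 windows of the 7 genes, 4 held a GC box, as did 35.7% of all 32851 promoter windows in the table. The E-box CACGTG and the element TGATGCAA (reverse complement TTGCATCA), searched on both strands, were in 0 of the 8 windows and in 7.15% and 0.895% of all windows. A match or its absence says only what letters lie in these windows.

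The markers fitted the labels of all 9 arrays. Array medians lay between log2 4.01 and 4.09. Of 8 ES cell markers, 7 were lower in EBs, among them Pou5f1 and Nanog, transcription factors of pluripotency, and 11 of 14 markers of differentiated derivatives were higher, among them the cardiac Tnnt2 and the embryonic globin Hbb-y. The summed level of the ES cell markers was log2 15.17 to 15.31 in ESC and 11.88 to 12.83 in EB arrays, and that of the derivatives 8.90 to 9.94 and 14.03 to 14.33. Markers of visceral endoderm and liver, tissues rich in several of these enzymes, summed to 6.91 to 7.39 in ESCs and 7.56 to 8.39 in EBs, with 2 of 6 called higher in EBs, Afp and Rbp4, and with Apoa1 and Apob near the floor (under log2 4) on every array. Fibroblast markers summed to 7.42 to 7.87 and 10.85 to 11.95. The part of any change in cell types in the differences below was not tested, and in bulk RNA fewer cells of a type and less RNA per cell cannot be told apart.

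One feature of the series bears on the results. Across all probe sets, ES2 correlated with ES6 at Pearson r = 0.998 and ES8 with ES10 at 0.998, while pairs across these were at 0.995 to 0.996. In EBs the arrays 1, 3 and 5 and the arrays 7 and 9 divided in the same way, at 0.998 to 0.999 within and 0.997 to 0.998 across. The labels name no batch, and the numbers are those of the sample names. Arrays 1 to 6 and arrays 7 to 10, here called the array sets, each hold both groups, so each result is also given within them.

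Of the 7 genes, each represented by its probe set of highest mean level, 4 were lower in EBs and 0 higher (limma with Benjamini-Hochberg adjustment over all 45037 probe sets, called at an adjusted p under 0.05). Over all genes, 14.7% were called lower and 15.7% higher, and of the genes with a mean of log2 4 or more, as all 7 had, 20.9% were called lower. The median difference, EB minus ESC, was -0.74 over the 7 genes and -0.04 over all 18193. Of the 20 probe sets, 10 were called lower and 0 higher, where 10.6% of all probe sets were called lower and 10.5% higher. The number of all probe sets called lower, 4778, rose to 12735 without EB9 and to 12834 with array weights. All 5 EB arrays lay below all 4 ESC arrays for 5 of the 7 genes, against 19.4% of all genes and 24.2% of those with a mean of log2 4 or more. The same held for 11 of the 20 probe sets, against 15.8% of all. The 4 called genes were Gldc, Shmt1, Mthfd1 and Mthfd2. Psat1 had no overlap but missed the threshold in this fit. It was called in 7 of 19 alternative settings, among them array weights and the array sets as a term. The groups overlapped for Phgdh and Shmt2.

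**Figure D1:**
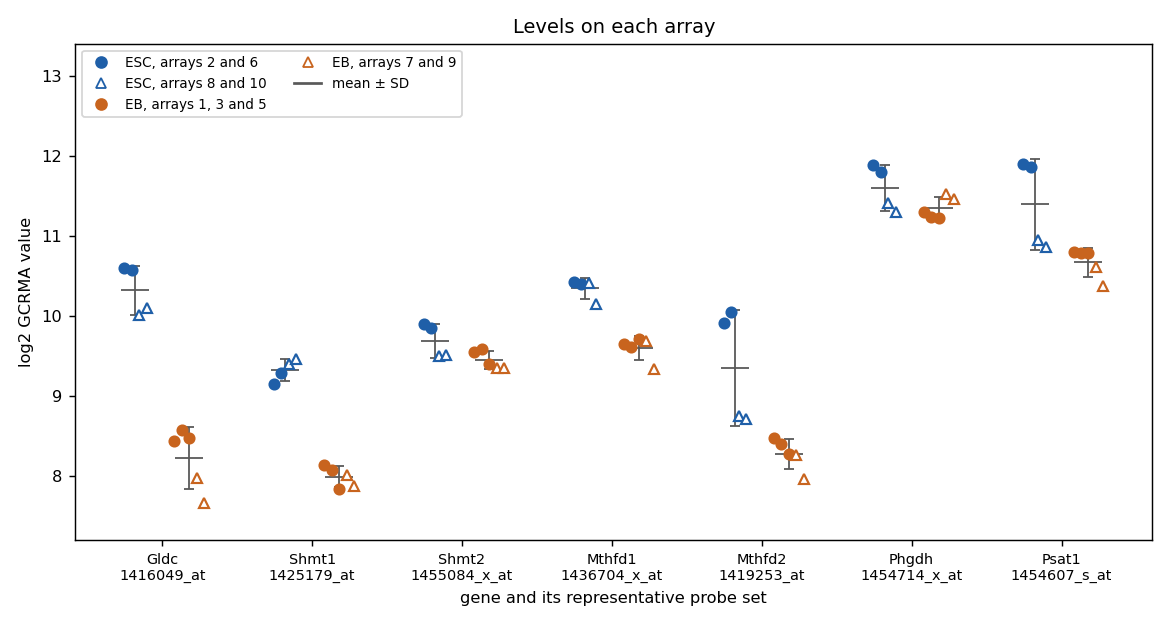
Log2 GCRMA values (vertical axis) of the representative probe set of each of 7 genes (horizontal axis) on 4 ESC arrays (blue) and 5 EB arrays (orange), with mean and SD. Filled circles are arrays 1 to 6 and open triangles arrays 7 to 10. Gldc, Shmt1 and Mthfd1 are lower on every EB array, and for Mthfd2 and Psat1 the ESC arrays fall into a high and a low pair.

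Gldc, the decarboxylase of the glycine cleavage system, showed the largest difference of the 7 genes. Its probe set (1416049_at) read 10.60, 10.58, 10.02 and 10.11 on ES2, ES6, ES8 and ES10, and 8.44, 8.58, 8.49, 7.98 and 7.66 on EB1, EB3, EB5, EB7 and EB9. All EB arrays lay more than 1 log2 unit below all ESC arrays, and in both groups the arrays numbered 7 to 10 were the lower ones. The means were 10.33 ± 0.31 (SD, n = 4) in ESCs and 8.23 ± 0.39 (SD, n = 5) in EBs, a level 4.28-fold higher in ESCs (95% interval 3.05 to 6.0; limma, adjusted p = 9.05e-05). The difference, EB minus ESC, was -2.09 within arrays 1 to 6 and -2.24 within arrays 7 to 10. Of the other subunits, Amt had no probe set. Gcsh, the lipoyl carrier of the system, fell by only 0.31 ± 0.07 (SE) on the log2 scale in EBs (adjusted p = 0.00841), and Dld, a dehydrogenase shared with other mitochondrial complexes, was not called.

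Shmt1, the cytosolic hydroxymethyltransferase, was lower in EBs at 3 of its 4 probe sets. The representative one (1425179_at) read 9.15, 9.29, 9.41 and 9.46 on ES2, ES6, ES8 and ES10, and 8.14, 8.09, 7.85, 8.02 and 7.88 on EB1, EB3, EB5, EB7 and EB9. The groups were far apart, with an SD of 0.14 in ESCs and 0.13 in EBs. The level was 2.52-fold higher in ESCs (95% interval 2.20 to 2.88; limma, adjusted p = 5.15e-06). Probe set 1422198_a_at gave almost the same, 2.50-fold (2.15 to 2.89). The other pair of probe sets gave smaller differences, -0.50 at 1425178_s_at (adjusted p = 4.95e-04) and -0.40 at 1425177_at (0.0613, not called). The probe sets of Shmt1 therefore disagreed on the size of the change by more than their intervals, and they agreed on its direction.

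Shmt2, the mitochondrial counterpart, was not called at any of its 4 probe sets. Its representative probe set (1455084_x_at) read 9.90, 9.86, 9.51 and 9.52 on ES2, ES6, ES8 and ES10, and 9.55, 9.59, 9.40, 9.35 and 9.36 on EB1, EB3, EB5, EB7 and EB9. ES8 and ES10 lay among the EB arrays. The level in ESCs was 1.19 times that in EBs (95% interval 1.01 to 1.39; limma, adjusted p = 0.0897), and the 4 probe sets gave differences of -0.41 to -0.21. Within arrays 1 to 6 the difference was -0.36 (adjusted p = 0.0239), and within arrays 7 to 10 it was -0.16 (0.219). With the array sets as a term in the fit it was -0.27 (adjusted p = 0.00973), and with array weights -0.32 (0.0337). The call thus depended on the fit used.

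Mthfd1, the cytosolic trifunctional folate enzyme, was lower in EBs at all 3 probe sets. Probe set 1415917_at read 10.19, 10.20, 10.21 and 10.04 on ES2, ES6, ES8 and ES10, and 8.83, 8.88, 8.74, 8.69 and 8.43 on EB1, EB3, EB5, EB7 and EB9. Here the ESC arrays were close together, and all EB arrays lay more than 1 log2 unit below them. The level was 2.72-fold higher in ESCs at this probe set (95% interval 2.36 to 3.14; limma, adjusted p = 4.61e-06) and 2.71-fold at 1415916_a_at. The representative probe set (1436704_x_at), of a type that can also bind other transcripts, gave 1.67-fold (1.45 to 1.93; adjusted p = 2.74e-04). It read 10.43, 10.40, 10.42 and 10.15 on the ESC arrays in the same order, and 9.65, 9.62, 9.72, 9.69 and 9.34 on the EB arrays.

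Mthfd2, the mitochondrial dehydrogenase and cyclohydrolase, was lower in EBs, with ESC arrays that split into pairs. Its representative probe set (1419253_at) read 9.91, 10.05, 8.75 and 8.71 on ES2, ES6, ES8 and ES10, and 8.47, 8.41, 8.28, 8.27 and 7.97 on EB1, EB3, EB5, EB7 and EB9. All EB arrays lay below all ESC arrays, but ES8 and ES10 stood 1.25 log2 units below ES2 and ES6 in the mean and close to the EB arrays. The level was 2.11-fold higher in ESCs (95% interval 1.33 to 3.36; limma, adjusted p = 0.0295), and 2.52-fold at 1419254_at (1.60 to 3.98; 0.00877). The first call was lost when EB1, EB3, EB5, EB7, ES2 or ES6 was left out (adjusted p up to 0.0773), and the second was kept in all 9 such fits. The difference was -1.60 within arrays 1 to 6 (adjusted p = 3.31e-04) and -0.61 within arrays 7 to 10 (0.0389). The difference between the array sets was not tested, here or for the genes that follow.

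Psat1, the second enzyme of serine synthesis, divided in the same way. Its representative probe set (1454607_s_at) read 11.90, 11.87, 10.95 and 10.87 on ES2, ES6, ES8 and ES10, and 10.80, 10.78, 10.79, 10.62 and 10.38 on EB1, EB3, EB5, EB7 and EB9. The lowest ESC array was only just above the highest EB array. The level in ESCs was 1.65 times that in EBs (95% interval 1.14 to 2.38; limma, adjusted p = 0.0606), and at 1451064_a_at it was 1.87-fold higher (1.23 to 2.83; 0.0397). With the array sets as a term in the fit the representative probe set was called, at -0.78 (adjusted p = 0.00241). The call at 1451064_a_at was lost on leaving out any one array other than ES8 or ES10, with adjusted p up to 0.0969. Within arrays 1 to 6 the representative difference was -1.09 (adjusted p = 8.63e-05), and within arrays 7 to 10 it was -0.41 (0.0695).

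Phgdh, the first enzyme of serine synthesis, was not called at any of its 4 probe sets, all of the type that can bind other transcripts. The representative one (1454714_x_at) read 11.89, 11.80, 11.41 and 11.31 on ES2, ES6, ES8 and ES10, and 11.30, 11.23, 11.22, 11.53 and 11.46 on EB1, EB3, EB5, EB7 and EB9. The groups overlapped, since EB7 and EB9 lay above ES8 and ES10. The level in ESCs was 1.19 times that in EBs (95% interval 0.972 to 1.46; limma, adjusted p = 0.137). Within arrays 1 to 6 EBs were lower by a difference of -0.59 (95% interval -0.72 to -0.47; adjusted p = 0.00117). Within arrays 7 to 10 the difference was 0.13 (-0.03 to 0.30; 0.319), so its sign turned and its interval did not meet that of arrays 1 to 6.

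**Figure D2:**
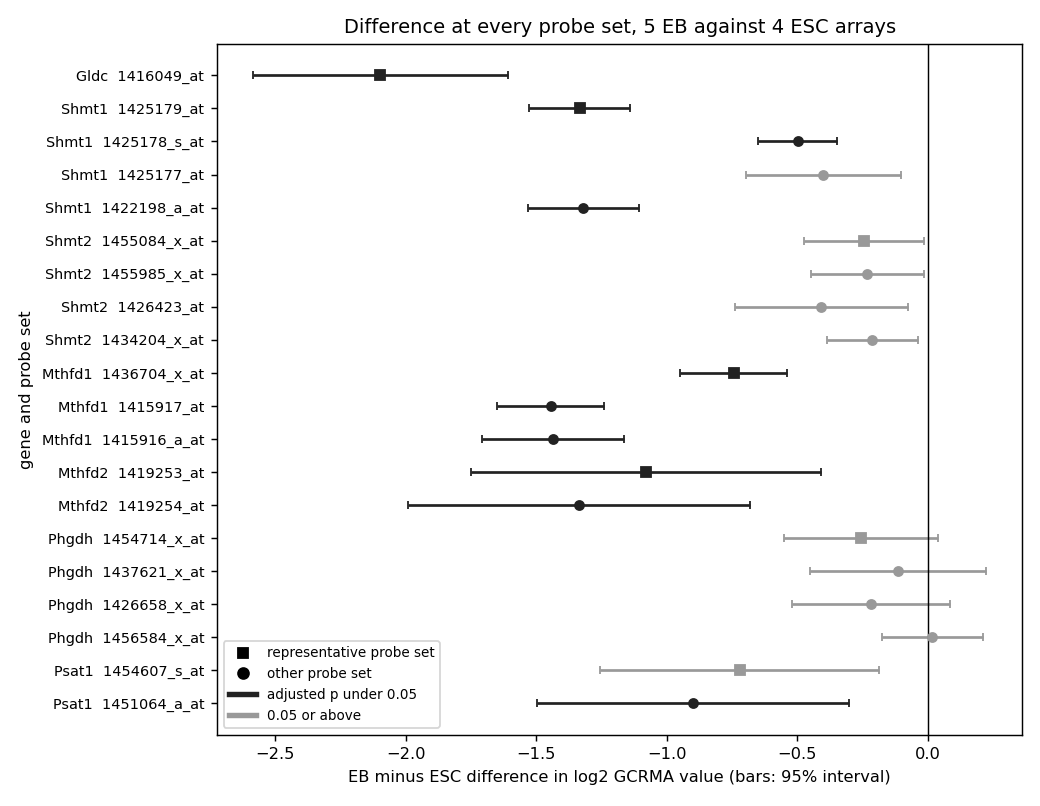
EB minus ESC difference in log2 GCRMA value (horizontal axis) with 95% interval at each of the 20 probe sets (vertical axis), over 5 EB and 4 ESC arrays. Black marks are the 10 probe sets called lower in EBs, from -2.10 at Gldc to -0.50 at Shmt1 1425178_s_at, and squares are the representative probe sets.

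Within arrays 1 to 6, all 7 genes were called lower in EBs by their representative probe sets, where 14.3% of all genes were, as were 16 of the 20 probe sets (9.85% of all). Within arrays 7 to 10 the called genes were Gldc, Shmt1, Mthfd1 and Mthfd2, which is 4 of 7, against 10.1% of all genes, and 11 of the 20 probe sets (6.93% of all). The median difference of the 7 genes was -1.09 in arrays 1 to 6 and -0.61 in arrays 7 to 10. In the median, the ESC arrays differed more between the sets than the EB arrays did. ES8 and ES10 differed from ES2 and ES6 by a median of -0.49 over the 7 genes, whereas EB7 and EB9 differed from EB1, EB3 and EB5 by a median of -0.16. Gldc differed by -0.53 in ESCs and -0.68 in EBs, and Mthfd1 by -0.13 and -0.15. Shmt1 went the other way in ESCs at its representative probe set, with means of 9.43 on ES8 and ES10 and 9.22 on ES2 and ES6. Its other probe sets differed between these ESC arrays by 0.26 (1422198_a_at), -0.01 (1425178_s_at) and -0.05 (1425177_at).

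**Figure D3:**
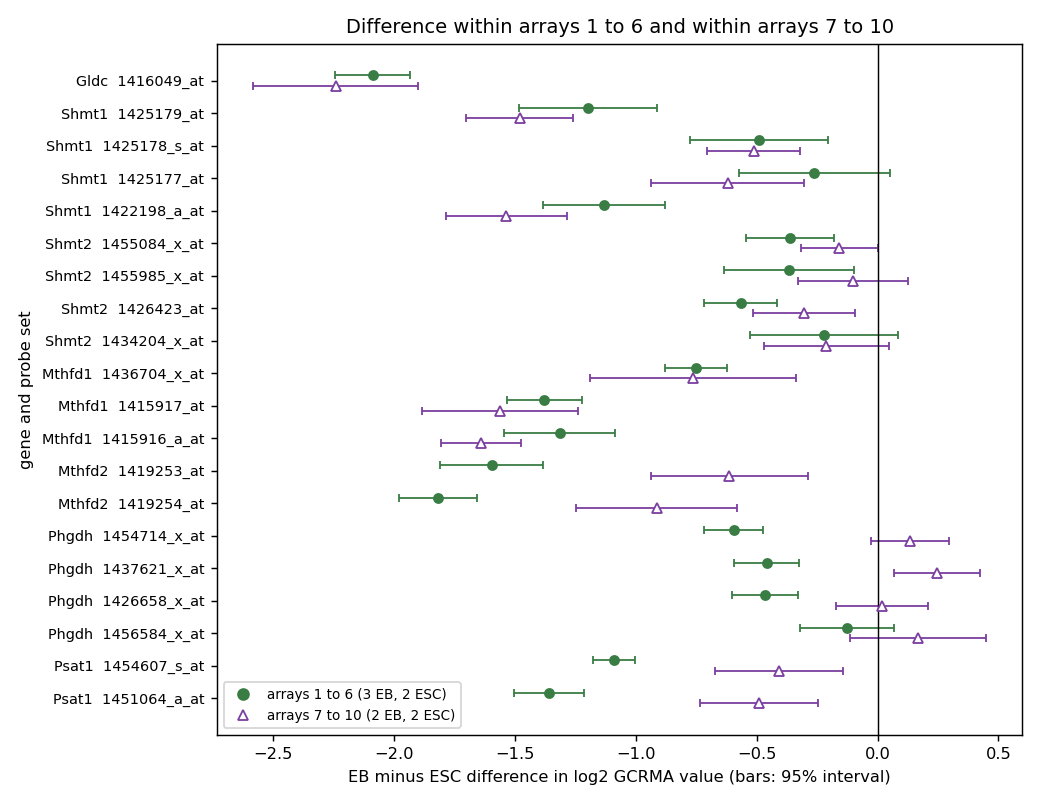
EB minus ESC difference in log2 GCRMA value (horizontal axis) with 95% interval at each of the 20 probe sets (vertical axis), within arrays 1 to 6 (3 EB and 2 ESC, green circles) and within arrays 7 to 10 (2 EB and 2 ESC, open purple triangles). Gldc and Mthfd1 lie at similar places in both array sets, Mthfd2 and Psat1 lie nearer to 0 in arrays 7 to 10, and the 4 Phgdh probe sets pass to the right of 0 there.

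The split of the ESC arrays was shared by genes of the Atf4 response, a transcription factor program of amino acid shortage that is known to act on serine synthesis genes. Both ES8 and ES10 lay at least 0.5 log2 units below both ES2 and ES6 for Mthfd2 and Psat1 among the 7 genes, and for 1.79% of all genes (2.58% of those with a mean of log2 4 or more). The same held for 8 of the 47 measured genes of a wider pathway list described below. Among these were 4 of the 6 Atf4 response genes (Atf4, Asns, Chac1 and Trib3). The others were Psph, Cth, Mthfd1l and Slc7a5, listed in other groups. Chac1, a glutathione-degrading enzyme, read 9.01, 8.58, 6.32 and 5.79 on ES2, ES6, ES8 and ES10. Atf4 itself read 11.78, 11.77, 10.98 and 10.67 on these arrays and 11.08 to 11.22 on the EB arrays, so that ES2 and ES6 were above and ES8 and ES10 below all EBs. Asns, the asparagine synthetase, read 12.32, 12.23, 11.26 and 11.13 on the ESC arrays and 9.94 to 10.78 on the EB arrays. Some markers of differentiated derivatives also moved with this split, in the opposite direction, but the list as a whole did not. Over its 14 genes ES8 and ES10 differed from ES2 and ES6 by a median of 0.005, with Gata4 at -0.08 and Gata6 at -0.04. Col1a1, a collagen, read 6.98, 6.78, 9.03 and 9.02 on ES2, ES6, ES8 and ES10, and Col3a1, another collagen, read 3.12, 3.65, 6.28 and 5.51. Kdr, a receptor of endothelial cells and their precursors, read 3.80, 4.41, 5.33 and 5.21. The part of these genes or of the Atf4 program in the levels of Mthfd2 and Psat1 was not tested, and all of them move with the array numbers.

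Ratios within an array compared enzymes that act at successive steps or in different compartments. Only changes in a ratio are meaningful here, since its level depends on the probes. Of the 5 pairs planned, Tdh over Gcat and Gldc over Amt could not be formed, which left 3. The log2 ratio of mitochondrial Shmt2 to cytosolic Shmt1 was 0.75, 0.57, 0.10 and 0.06 on ES2, ES6, ES8 and ES10, and 1.41, 1.51, 1.56, 1.33 and 1.47 on EB1, EB3, EB5, EB7 and EB9. All EB arrays were above all ESC arrays, by 1.09 in the mean (two-sided exact permutation test over arrays, p = 0.0159, which is as low as 4 against 5 arrays can give, and 0.0476 after Benjamini-Hochberg adjustment over the 3 pairs). Adjustment over the 5 planned pairs could have put this value above the threshold. The difference was 0.83 within arrays 1 to 6 and 1.32 within arrays 7 to 10, and it was 0.61 when each gene was taken as the mean of its probe sets (unadjusted p = 0.0159 by the same permutation test).

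The ratio of mitochondrial Mthfd2 to cytosolic Mthfd1 did not pass the test, with a difference of -0.33 (exact permutation test, two-sided, p = 0.317, adjusted 0.317). ES2 and ES6 gave -0.52 and -0.35, and ES8 and ES10 gave -1.67 and -1.44, beside EB arrays at -1.44 to -1.18. ES2 and ES6 lay above all EB arrays, ES8 lay below them, and ES10 lay at their lower end. The difference turned from -0.84 within arrays 1 to 6 to 0.15 within arrays 7 to 10. The ratio of Phgdh to Psat1 was higher in EBs by 0.47 but also missed the threshold (exact permutation test, two-sided, p = 0.0794, adjusted 0.119). Its difference was 0.50 within arrays 1 to 6 and 0.54 within arrays 7 to 10.

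**Figure D4:**
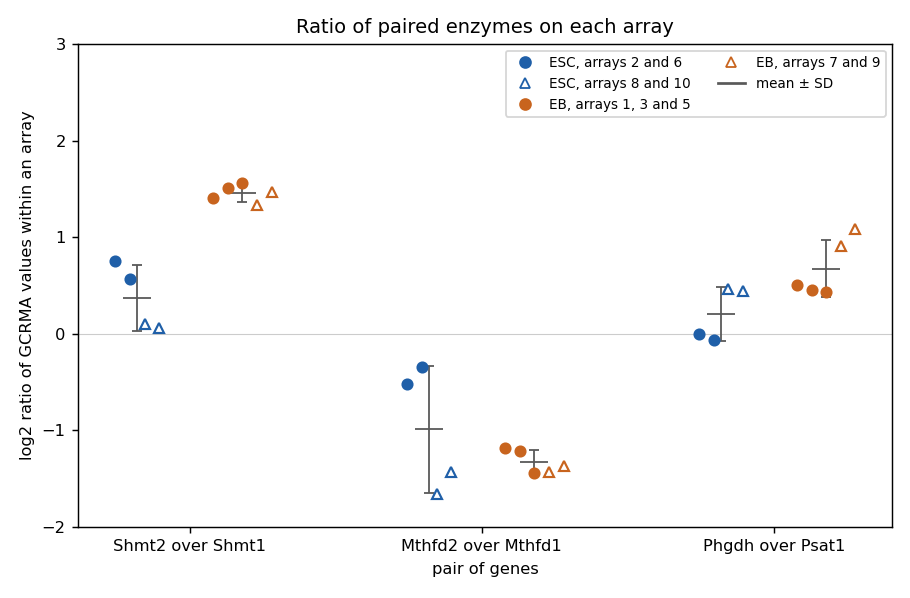
Log2 ratio of GCRMA values of paired enzymes within each array (vertical axis) for 3 pairs (horizontal axis), on 4 ESC arrays (blue) and 5 EB arrays (orange), with mean and SD. Filled circles are arrays 1 to 6 and open triangles arrays 7 to 10. Shmt2 over Shmt1 is higher on all EB arrays, and Mthfd2 over Mthfd1 of ES2 and ES6 lies above all others.

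The wider pathway was read from a list of 52 other genes, of which 47 were measured by a probe set of their own and the others were not analysed here. Of these, 18 were lower in EBs and 1 higher, against 14.7% and 15.7% of all genes, and 28 were not called. Their median difference was -0.28, beside -0.04 over all genes. Within arrays 1 to 6, 24 were called lower, beside 14.3% of all genes. Within arrays 7 to 10, 20 were called lower, beside 10.1% of all genes.

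Most purine synthesis genes were lower in EBs, with 5 of 6 called and a median difference of -1.03. Over all genes 14.7% were called lower (20.9% of those with a mean of log2 4 or more), and the median was -0.04. Purine synthesis takes folate-bound one-carbon units at a pair of its steps. Gart, the trifunctional enzyme of the first such step, read 10.54, 10.79, 10.63 and 10.67 on ES2, ES6, ES8 and ES10, and 9.07, 9.16, 8.98, 9.03 and 8.76 on EB1, EB3, EB5, EB7 and EB9. It was 3.15-fold higher in ESCs (limma, adjusted p = 1.54e-06), with no split of the ESC arrays. Atic, the enzyme of the second such step, was 2.25-fold higher (4.73e-06) and Pfas, a synthase between them, 2.10-fold (7.81e-06). Paics was the one not called. The median difference of the 6 genes was -1.01 within arrays 1 to 6 and -1.07 within arrays 7 to 10. Over all genes these medians were -0.04 and -0.03.

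Of 8 measured genes of the cytosolic folate group, 2 were called lower in EBs, Folr1 and Fpgs, against 14.7% of all genes. Folr1, a folate receptor of the cell surface, read 10.30, 10.16, 10.40 and 10.33 on ES2, ES6, ES8 and ES10, and 6.93, 7.30, 7.03, 6.71 and 6.77 on EB1, EB3, EB5, EB7 and EB9. This was 10.2-fold higher in ESCs (limma, adjusted p = 2.34e-07), the largest difference in the wider list. Fpgs, which adds glutamates that hold folate in the cell, was 1.98-fold higher (1.88e-04). The other 6 measured genes of the cytosolic folate group were not called, among them Slc19a1, the reduced folate carrier.

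Among mitochondrial folate genes 3 of 7 were called lower in EBs and 1 higher, beside 14.7% and 15.7% of all genes. Pipox, a peroxisomal oxidase of pipecolate and sarcosine that had been listed in this group, was 4.38-fold higher in ESCs (limma, adjusted p = 6.35e-05). Slc25a32, the folate carrier of the inner membrane, was 2.39-fold higher (7.54e-05) and Mthfd1l, the formyltetrahydrofolate synthetase, 2.02-fold (0.0161). Mthfd2l, a relative of Mthfd2 in mitochondria, ran the opposite way and read 8.06, 7.19, 7.44 and 7.47 on ES2, ES6, ES8 and ES10, and 9.14, 8.94, 8.87, 9.31 and 9.41 on EB1, EB3, EB5, EB7 and EB9. It was 3.03-fold higher in EBs (1.67e-04), so that Mthfd2 was lower and Mthfd2l higher in EBs.

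**Figure D5:**
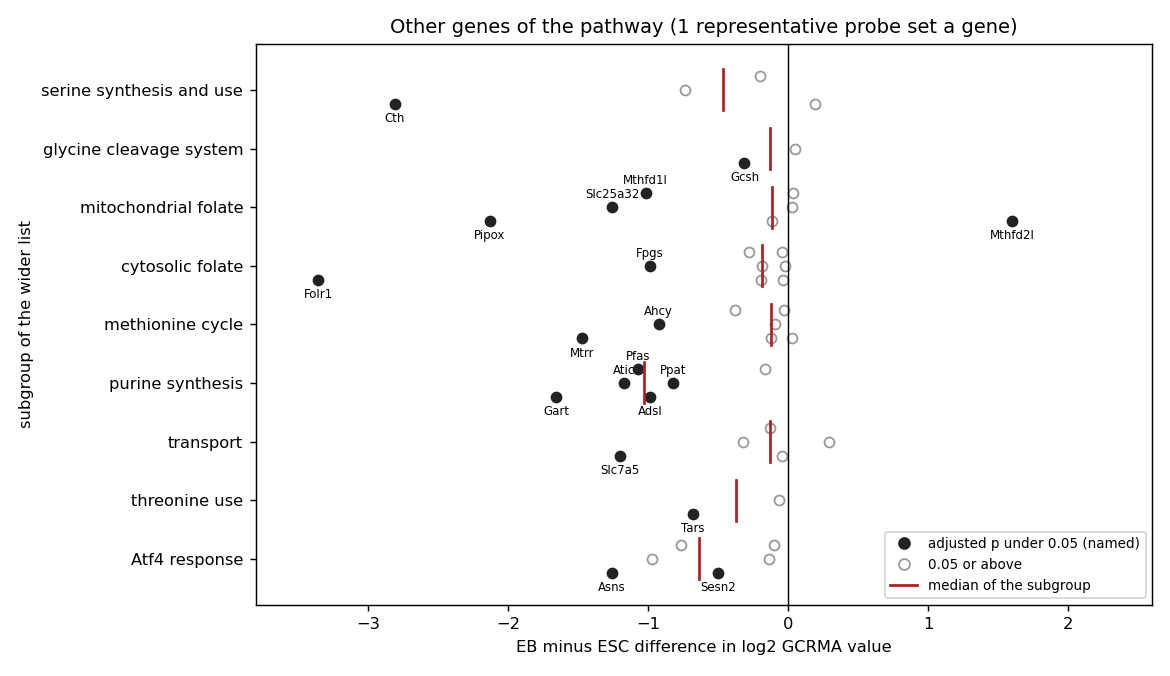
EB minus ESC difference in log2 GCRMA value (horizontal axis) of 47 further genes, 1 representative probe set each, in 9 subgroups (vertical axis). Filled points passed the test and are named, open points did not, and red lines are subgroup medians. Mthfd2l alone is filled to the right of 0, and 5 of 6 purine synthesis genes are filled to the left.

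In the methionine cycle 2 of 7 genes were called lower in EBs, beside 14.7% of all genes and 20.9% of those with a mean of log2 4 or more. Mtrr, the reductase that keeps methionine synthase active, was 2.77-fold higher in ESCs (limma, adjusted p = 2.48e-05), and Ahcy, which hydrolyses S-adenosylhomocysteine, 1.90-fold (6.80e-07). Cth, which makes cysteine from cystathionine, was 7.0-fold higher in ESCs (2.66e-05) and was the only called gene of 4 in the group of serine synthesis and use. Psph, the last enzyme of serine synthesis, named after its values were seen, read 9.19, 9.12, 8.02 and 8.05 on ES2, ES6, ES8 and ES10 and 7.55 to 8.10 on the EB arrays (adjusted p = 0.0808, and 0.00241 with the array sets as a term). Its ESC arrays thus split as those of Psat1 did.

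Of 5 transporters 1 was lower in EBs, beside 14.7% of all genes and 20.9% of those with a mean of log2 4 or more. This was Slc7a5, an exchanger of large neutral amino acids, 2.30-fold higher in ESCs (limma, adjusted p = 0.00263). Its values were 9.93, 10.10, 9.07 and 9.27 on ES2, ES6, ES8 and ES10. Tars, the threonyl-tRNA synthetase, was 1.60-fold higher (0.00490), while Tha1, a threonine aldolase, lay near the floor in both groups. Of the 6 Atf4 response genes, 2 were called lower in EBs, to be read beside the same shares. Asns was 2.39-fold higher in ESCs (0.0159) and Sesn2, a stress-induced regulator of growth signalling, 1.41-fold (0.00286). The other 4 were not called over all 9 arrays, of which Trib3, a pseudokinase of the stress response, was called with the array sets as a term (adjusted p = 5.97e-04).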

How the data were processed

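The authors deposited GCRMA intensities on a linear scale, from 2.14 to 37448, for 45101 probe sets on each of 9 arrays, 4 of ESCs and 5 of EBs. GCRMA subtracts a sequence-modelled background, normalizes between arrays and summarizes probes. Whether all arrays were normalized together is not given in the sources used here. Log2 of each value was taken, and the 64 controls of the array were dropped. The platform annotation gave 1 gene symbol for 34945 of the remaining 45037, several for 932 and none for 9160. Precision is limited by how many arrays there are.

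Differences were tested by limma 3.58.1 in R 4.3.3 (eBayes with trend and robust, two-sided), with Benjamini-Hochberg adjustment over the 45037 probe sets. A gene was represented by its probe set of highest mean over the 9 arrays. Ratios of paired genes were tested by exact permutation over arrays. The fit was tested on simulated data with independent noise and no array sets, so that test does not cover the split between the array sets. The members, lists, pairs and the division of the arrays by number were chosen with earlier results of these data known. Members were named by all their probe sets. The rule for wider-list genes was up to 3 called genes of largest difference in either direction per subgroup. In the mitochondrial folate group all called genes were named. The uncalled genes Psph, Atf4, Chac1, Trib3, Dld, Paics, Slc19a1 and Tha1 were named outside this rule. A search for genes most like Tdh was not made, since Tdh had no probe set. Promoters were those of RefSeq. All 7 genes with a probe set had at least 1 window.

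Alternatives were quantile normalization, median centring, array weights, the fit without its trend and robust options, probe sets of the plain _at type, a mean of log2 4 or more, 16 added before log2, averaging the probe sets of a gene, arrays 1 to 6 and 7 to 10 as a term and separately, and each array left out in turn.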

Additional observations from a re-analysis of the deposited data

Results flagged for a closer look

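Of 46 groups of arrays examined (20 probe sets and 3 ratios in each of 2 groups), 3 had 1 array far from the rest, where chance gives about 1 in 20. All 3 concern Mthfd1. At 1436704_x_at, ES10 read 10.15 beside 10.40 to 10.43, a gap of 0.873 of the range of the ESC arrays, and EB9 read 9.34 beside 9.62 to 9.72, a gap of 0.726 of the range of the EB arrays. At 1415917_at, ES10 read 10.04 beside 10.19 to 10.21, a gap of 0.892 of the range. Both arrays read low, and Mthfd1 kept its call without either of them.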

How the results depend on the processing

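No paired analysis was made, because the ESC and EB arrays share no replicate number and the labels state no pairing. Of the 10 called probe sets, 8 were called lower in every setting run for them, those of Gldc, Mthfd1 (3), Shmt1 (3) and Mthfd2 (1419254_at). The count of genes called lower, 4 of 7, was 7 with array weights and 7 within arrays 1 to 6, 6 with the array sets (1 to 6 and 7 to 10) as a term (Psat1 and Shmt2 gained), and 3 to 5 with 1 array left out. Beside these, the calls lower over all 45037 probe sets went from 4778 to 12834 with array weights. They were 4435 within arrays 1 to 6 and 5245 with the array sets as a term. Phgdh turned sign within arrays 7 to 10, at 0.13, 0.25 and 0.017 for 1454714_x_at, 1437621_x_at and 1426658_x_at. Its 1456584_x_at, at 0.02, turned to -0.13 within arrays 1 to 6 and -0.089 with array weights, and ran from -0.068 (without ES10) to 0.085 (without ES6) with 1 array left out. The Mthfd2 over Mthfd1 difference was 0.15 within arrays 7 to 10, a setting added after seeing the data, and 9.18e-04 by the mean over probe sets. The Phgdh over Psat1 difference passed the unadjusted threshold at 0.48 after quantile normalization and at 0.67 by the mean over probe sets. Over all probe sets, 4778 were called lower, but 12834 with array weights, 7272 with median centring, 3122 within arrays 7 to 10, 2997 among plain probe sets and 4088 to 12735 with 1 array left out, the highest without EB9. The count of wider-list genes called higher, 1 (Mthfd2l), became 0 among plain probe sets and 2 with the array sets as a term. The causes were not tested, except that plain probe sets are fewer.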
